A study of Bos indicus with 5 samples.

Results

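The genes described here encode the enzymes that cut the extracellular matrix and the surface of cells, together with their inhibitors. They were picked by a rule on the symbol that uses no measured value, though the choice was made with earlier results of these data known. A gene was kept when its symbol was that of a numbered matrix metalloproteinase (MMP), an ADAM, an ADAMTS or ADAMTS-like protein, a TIMP, or PLAU, PLAUR or PLAT, and 63 of the 24616 genes in the table met this rule. They comprised 18 MMP, 17 ADAM, 18 ADAMTS and 3 ADAMTSL genes, 4 TIMP genes and 3 genes of plasminogen activation. MMP1 was listed as 2 genes, so that the 63 genes carried 62 symbols.

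Transcript abundance was measured by RNA sequencing of the ampulla, the part of the oviduct where fertilization takes place, in healthy multiparous Nelore cows (Bos indicus). Every cow received a progesterone device in the vagina (1 g), 2 mg of estradiol benzoate, prostaglandin F2α analog (sodium cloprostenol) and a GnRH agonist (buserelin acetate) that induced ovulation. The 2 LF/LCL cows, whose ovaries carried a large follicle and then a large corpus luteum, had the device taken out 42 h before this GnRH and an extra prostaglandin injection when it went in. The 3 SF/SCL cows, with a small follicle and a small corpus luteum, had it taken out 30 h before GnRH. Tissue was taken on day 4 after GnRH, 1 library per animal. The animals were picked by the authors as the extremes of each group in follicle diameter, estradiol, corpus luteum area and progesterone, so that they do not stand for all cows of a group. The pieces spanned the whole wall of the oviduct on the side of the corpus luteum and hold epithelium, stroma, muscle, vessels and serosa together. In such tissue fewer cells of a type and less RNA per cell cannot be told apart.

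Matrix metalloproteinases are zinc enzymes that are made as inactive precursors and cut collagens, laminin, elastin and many other matrix proteins. ADAM proteins sit in the membrane, where several of them release growth factors, cytokine receptors and adhesion molecules from the cell surface. ADAMTS proteins are secreted, bind matrix through thrombospondin repeats, and trim proteoglycans or the ends of procollagens, while ADAMTS-like proteins keep the binding repeats but lack the enzyme domain. TIMP proteins block these enzymes, and the plasminogen activators PLAU and PLAT make plasmin, a serine protease that can activate precursors of metalloproteinases. In the oviduct such enzymes are known for matrix turnover during the estrous cycle and for the release of growth factors bound to matrix.

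The libraries held from 13418278 to 19592174 reads assigned to genes, and the 63 genes together took between 0.145% and 0.212% of them. Values are normalized reads, which are reads divided by a size factor of the library, and they are not corrected for gene length, so that levels are compared here between libraries and not between genes. The smooth muscle markers were higher in LF/LCL in 12 of 12 genes, by 0.84 to 1.77 on the log2 scale, and their summed level ran from 75519 to 143237 in LF/LCL and from 19404 to 49755 in SF/SCL. The ciliated cell markers were lower in LF/LCL in 14 of 14 genes (median -0.47) with sums from 54656 to 70523 in LF/LCL and from 83704 to 84914 in SF/SCL. Stromal fibroblast markers were higher in LF/LCL in 10 of 11 genes (median 0.73, and 0.12 without LF/LCL replicate 1), none with an unadjusted limma p under 0.05, with sums of 91191 and 38035 (LF/LCL) and of 43172, 23584 and 52599 (SF/SCL). Immune markers were higher in LF/LCL in 11 of 13 genes tested and proliferation markers in 11 of 11. Mesothelial markers were lower in LF/LCL in 4 of 5 genes tested (median -1.01, and -0.03 without LF/LCL replicate 1). Blood markers were higher in 2 of 2. An unadjusted limma p under 0.05 was found for 10 smooth muscle markers (5.64% of all genes in that direction). The same held for 11 ciliated markers (5.86% of all genes in that direction). No smooth muscle, ciliated or stromal marker found in the table was at 0. Of 5 secretory markers tested, 2 had an unadjusted limma p under 0.05, both higher in LF/LCL (5.64% of all genes in that direction). DESeq2 called both as well (1.38% of all genes in that direction). These were PAX8, with a log2 fold change of 0.62 ± 0.15 (DESeq2 adjusted p 0.0447), and LTF, with 3.03 ± 0.75 (DESeq2 adjusted p 0.0121). OVGP1, the oviduct's own secretory glycoprotein, had a log2 fold change of -0.07 ± 0.15, and SCGB1A1 was at 0 reads.

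Of the 63 genes, 48 had a mean over 5 normalized reads and entered the comparison of LF/LCL with SF/SCL. This asked which of these transcripts differed with the hormonal setting around ovulation. With limma, which fits all 15815 such genes at once, 0 of the 48 had an adjusted p under 0.05, as for all genes (0%), and the lowest was 0.178. Before adjustment 6 members (12.5%) had a p under 0.05, against 11.5% of all genes, 4 of them higher in LF/LCL (5.64% of all genes) and 2 lower (5.86%). The share of such members is thus near the share among all genes. With the edgeR quasi-likelihood test on reads recovered from the values, 0 members had an adjusted p under 0.05 (0% of all genes) and 6 an unadjusted p under 0.05 (11.6% of all genes). DESeq2 on the same reads called 3 of 48 members (6.25%), against 2.89% of all genes. These were MMP23B, higher in LF/LCL (1.38% of all genes called in this direction), and MMP7 and ADAMTS12, lower in LF/LCL (1.5%). The edgeR exact test called the same 3 genes, but the share of all genes it called was not counted. Fold changes are given on the log2(value + 1) scale with the standard error after ±, and a value above 0 means higher in LF/LCL. The log2 fold change was at least 1 in either direction in 6 members (12.5%), against 7.79% of all genes. These 6 include ADAM11 and ADAM23, with 25 and 72 reads in all. The median standard error was 0.43 among the members and 0.21 among all genes. The median log2 fold change of the 48 members was 0.20, and that of all genes tested 0.01. In 31 members (64.6%) the log2 fold change was above 0, against 50.8% of all genes.

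**Figure D1:**
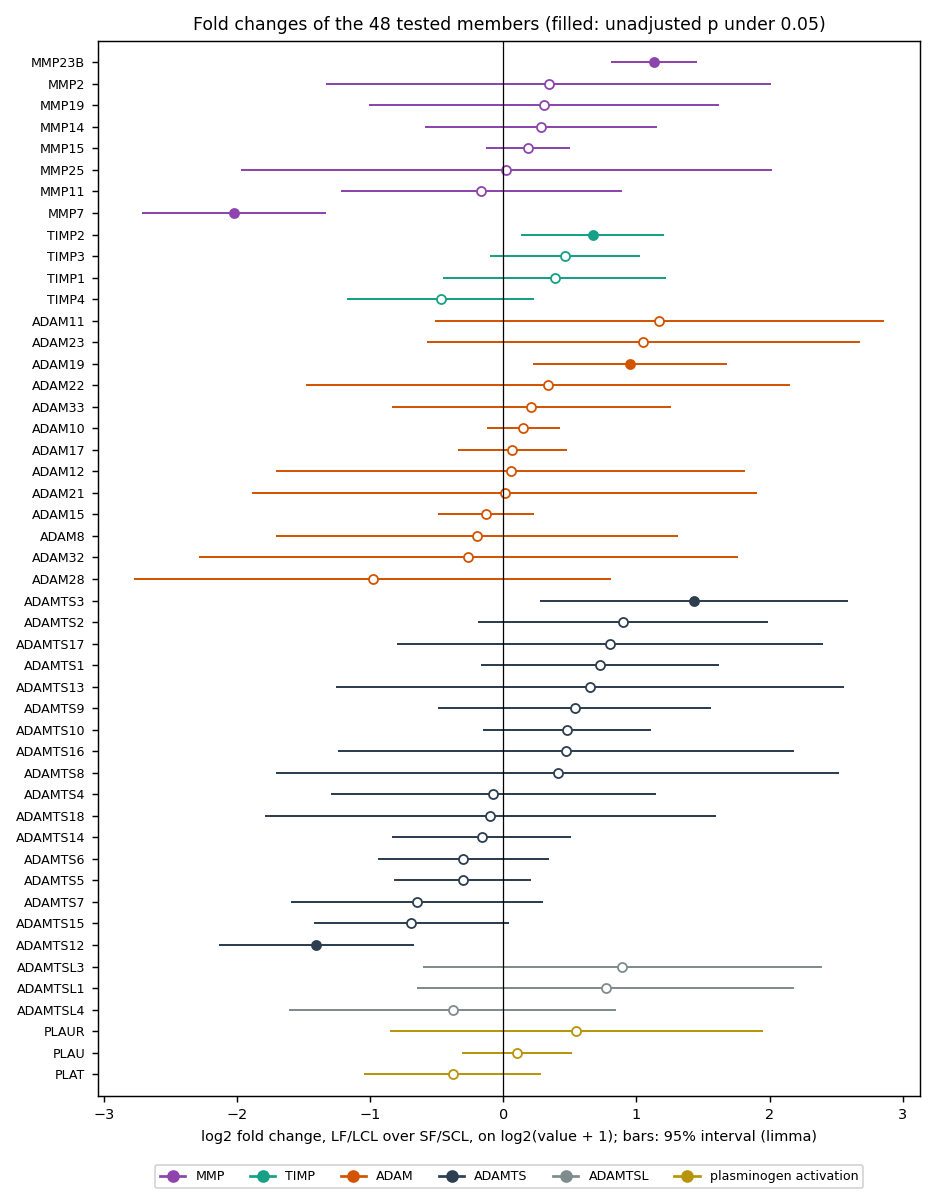
Log2 fold change (LF/LCL over SF/SCL, on the log2(value + 1) scale) of the 48 members tested, with the 95% interval from limma, coloured by class; filled points have an unadjusted p under 0.05. The interval includes 0 in 42 members, and MMP23B and MMP7 lie farthest from it in relation to their intervals.

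The groups did not overlap in 11 of the 48 members (22.9%), against 30.1% of all genes. Of these 11, 8 were higher in LF/LCL (16.7%, against 15% of all genes) and 3 lower (6.25%, against 15.1%). The 8 were ADAM11, ADAM19, ADAMTS2, ADAMTS3, ADAMTS10, MMP23B, TIMP2 and TIMP3, and the 3 were MMP7, ADAMTS12 and ADAMTS15. ADAM11 passed the filter only through LF/LCL, with a mean of 8.08 there and of 3.05 in SF/SCL, and with a filter at a mean of 15 the count of 8 was 7. Many members instead varied within the groups, and the levels by library show how far.

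**Figure D2:**
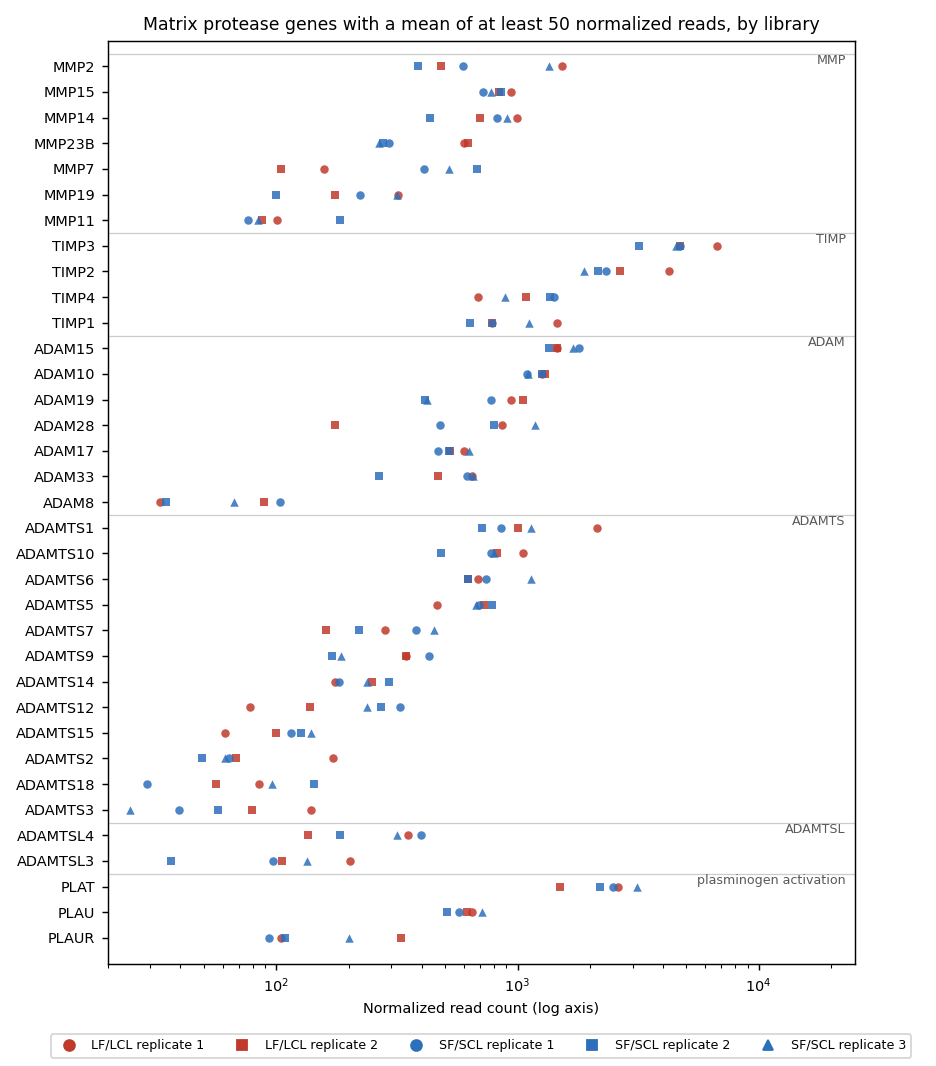
Normalized read count (log axis) in each of the 5 libraries for the 35 members with a mean of at least 50; red symbols are LF/LCL and blue symbols SF/SCL. The groups stand apart in MMP23B, MMP7 and ADAMTS12, while MMP2, ADAM28 and ADAMTSL3 spread widely within both groups.

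MMP7, or matrilysin, is a small metalloproteinase made by gland and surface epithelium that activates defensins and cuts adhesion proteins. It had the lowest log2 fold change among the 48 members tested. MMP7 had 157 and 105 normalized reads in the LF/LCL cows, against 409, 680.0 and 522 in the SF/SCL cows. Both LF/LCL libraries lay below all SF/SCL libraries, and the SD was larger in SF/SCL. The group means were 131 ± 37.2 (SD, n = 2) against 537 ± 136 (SD, n = 3), a log2 fold change of -2.03 ± 0.28 with a 95% interval -2.71 to -1.34. Adjusted p-values were 0.178 by limma, where the p before adjustment was 0.000323, and 2.50e-07 by DESeq2. DESeq2 still called MMP7 when any 1 library was left out. Markers of the ciliated epithelium were lower in LF/LCL as well (median -0.47). Of 5 secretory markers tested, 3 were higher in LF/LCL and 2 lower (median 0.09). The part of cell composition in the MMP7 difference was not tested.

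MMP23B, a metalloproteinase anchored in the membrane by its signal stretch and known from reproductive tissues, differed in the other direction. It had 599 and 625 normalized reads in the LF/LCL cows, against 292, 277 and 267 in the SF/SCL cows. Its libraries were tight within each group and separated between them. The means were 612 ± 18.4 (SD, n = 2) against 279 ± 12.5 (SD, n = 3), a log2 fold change of 1.13 ± 0.13 with a 95% interval 0.81 to 1.45. The limma adjusted p was 0.178 (unadjusted 0.000114) and the DESeq2 adjusted p 7.80e-09, and the DESeq2 call was made without each library in turn as well. MMP23B was set to be described because the study names it for the ampulla, so that this choice is not independent of these libraries. Smooth muscle markers were higher in the same 2 libraries, and their part in the difference was not tested.

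The collagen and gelatin cutting members behaved otherwise. MMP2, a gelatinase that degrades basement membrane collagen, had 1525 and 483 normalized reads in the LF/LCL cows, against 597, 386 and 1349 in the SF/SCL cows. LF/LCL replicate 1 and SF/SCL replicate 3 were high and the other 3 libraries low, so that the groups overlapped. The log2 fold change was 0.34 ± 0.67 with a 95% interval -1.32 to 2.00 and a limma adjusted p of 0.893. Its direction rested on single libraries, with -0.49 without LF/LCL replicate 1 and -0.06 without SF/SCL replicate 2. MMP14, the membrane enzyme that activates the MMP2 precursor, had 995 and 699 normalized reads in the LF/LCL cows, against 823, 432 and 900.4 in the SF/SCL cows. Again LF/LCL replicate 1 and SF/SCL replicate 3 were highest and SF/SCL replicate 2 lowest, and the log2 fold change of 0.28 ± 0.35 was -0.05 without SF/SCL replicate 2. MMP19, a stromal and vascular metalloproteinase, had 319 and 175 normalized reads in the LF/LCL cows, against 221, 99.5 and 317 in the SF/SCL cows, in the same order of libraries though with the 2 highest nearly equal.

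MMP15, another membrane metalloproteinase, was even across the libraries, with 941 and 835 (LF/LCL) against 718, 853 and 773 (SF/SCL). Its log2 fold change of 0.19 ± 0.13 had a 95% interval -0.12 to 0.49. MMP11, or stromelysin 3, had 101 and 87.1 (LF/LCL) against 75.9, 183 and 83.7 (SF/SCL), where SF/SCL replicate 2 alone was high. MMP25, an enzyme of leukocytes, passed the filter with 27 reads in all and is too sparse for a firm statement.

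The other 10 MMP genes stayed under the filter. MMP9, the gelatinase of neutrophils and macrophages, had only 24 reads in the 5 libraries, with 5.86 and 4.84 normalized reads in the LF/LCL cows, against 2.08, 7.77 and 2.15 in the SF/SCL cows. MMP24 had 22 reads, MMP17 15, MMP20 10 and one of the MMP1 genes (ENSBTAG00000015818) 2 reads, both in SF/SCL replicate 2. MMP17 had 5 and 7 reads (LF/LCL) beside 0, 2 and 1 (SF/SCL), which is too few to test. MMP3, MMP8, MMP13, MMP27 and the other MMP1 gene (ENSBTAG00000048029) had 0 reads in every library. A count of 0 allows up to 3 reads, which is between 2.33 and 3.52 normalized reads depending on the library, for counting error only. MMP1, MMP8 and MMP13 are the classical collagenases and MMP3 is a stromelysin. In the gene order of a Bos indicus assembly, which is not the one the reads were aligned to, MMP27, MMP20 and MMP7 lie next to each other, and MMP13 lies 5 protein-coding genes before MMP27. Of these 4, MMP7 alone had more than 10 reads.

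**Figure D3:**
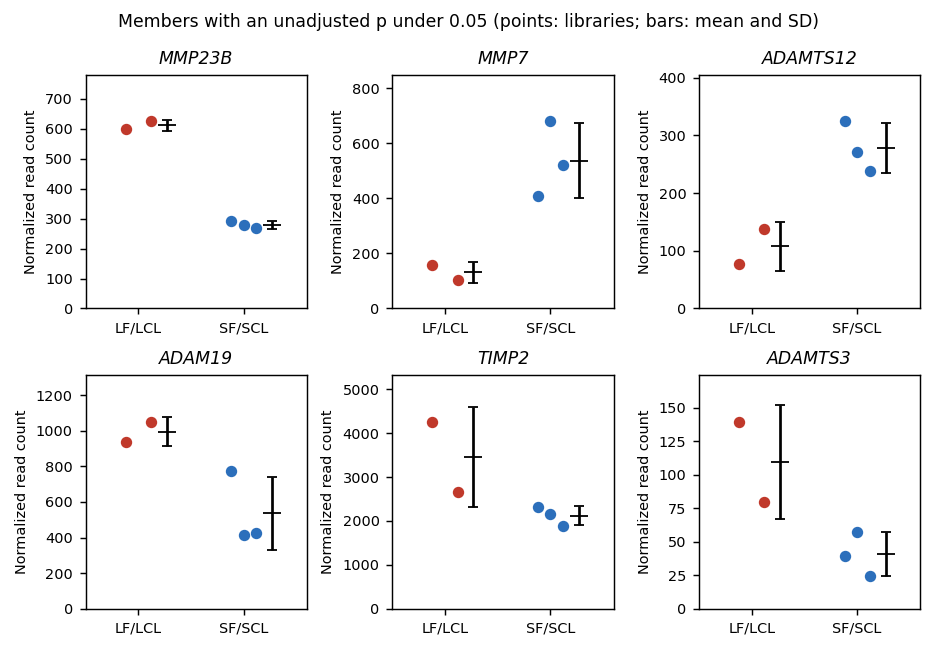
Normalized read count of the 6 members with an unadjusted p under 0.05 in limma, by group; points are libraries and bars the mean with its SD (n = 2 for LF/LCL, n = 3 for SF/SCL). MMP23B, ADAM19, TIMP2 and ADAMTS3 are higher in both LF/LCL libraries than in any SF/SCL library, and MMP7 and ADAMTS12 lower.

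The inhibitors were all among the well covered members, from 4662 reads in total for TIMP1 to 23508 for TIMP3. TIMP2, which blocks MMP2 and also takes part in its activation with MMP14, had 4264 and 2651 normalized reads in the LF/LCL cows, against 2317, 2164 and 1881 in the SF/SCL cows. Both LF/LCL libraries lay above all SF/SCL libraries, though LF/LCL replicate 2 was nearer to SF/SCL replicate 1 than to the other LF/LCL library. The log2 fold change was 0.67 ± 0.22 with a limma adjusted p of 0.357 (unadjusted 0.021), and DESeq2 did not call it (adjusted p 0.102). DESeq2 called it without LF/LCL replicate 2, and its unadjusted limma p was not under 0.05 without LF/LCL replicate 1 or SF/SCL replicate 3. TIMP3, the matrix-bound inhibitor that also acts on ADAM and ADAMTS enzymes, had 6716 and 4739.9 normalized reads in the LF/LCL cows, against 4708, 3192 and 4560.0 in the SF/SCL cows. The groups did not overlap, but LF/LCL replicate 2 and SF/SCL replicate 1 nearly met, and the log2 fold change was 0.46 ± 0.23 with a limma adjusted p of 0.502.

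TIMP1, a secreted inhibitor with a growth-promoting role, had 1458 and 787 normalized reads in the LF/LCL cows, against 782, 633 and 1116 in the SF/SCL cows. LF/LCL replicate 1 was high and LF/LCL replicate 2 lay within the SF/SCL range, and the log2 fold change of 0.38 ± 0.34 turned to -0.06 without LF/LCL replicate 1. TIMP4, an inhibitor best known from heart and other muscle, had the opposite sign. It had 685 and 1083 normalized reads in the LF/LCL cows, against 1422, 1358 and 883 in the SF/SCL cows, so that the groups overlapped through SF/SCL replicate 3, and its log2 fold change was -0.47 ± 0.28 with a limma adjusted p of 0.58. The median log2 fold change of the 4 TIMP genes was 0.42, and leaving out LF/LCL replicate 1 gave 0.08, leaving out replicate 2 of that group 0.77. Summed smooth muscle and stromal fibroblast marker levels were also highest in LF/LCL replicate 1, whereas TIMP4 was lowest there. TIMP1 was next highest in SF/SCL replicate 3, where the smooth muscle sum was lowest (19404) and the stromal sum next highest (52599). The part of these markers in the TIMP values was not tested.

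Among the ADAM genes, ADAM10, ADAM15 and ADAM17 were steady between libraries. The others varied more within at least 1 group or were sparse. ADAM10, the sheddase of Notch receptors and cadherins, had 1259.6 and 1301 normalized reads in the LF/LCL cows, against 1100.0, 1259.8 and 1109 in the SF/SCL cows. The libraries were within a narrow range, with a log2 fold change of 0.15 ± 0.11 and a 95% interval -0.12 to 0.41. ADAM17, which releases tumour necrosis factor and EGF receptor ligands, had 602 and 523 normalized reads in the LF/LCL cows, against 469.9, 519 and 629 in the SF/SCL cows. Its groups overlapped, with a log2 fold change of 0.07 ± 0.17 and a 95% interval -0.34 to 0.47, and the sign turned without LF/LCL replicate 1 and without SF/SCL replicate 1 (-0.03 in both). ADAM15, an ADAM with a disintegrin loop that binds integrins, had 1464 and 1463 normalized reads in the LF/LCL cows, against 1795, 1345 and 1695 in the SF/SCL cows and a log2 fold change of -0.13 ± 0.15.

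ADAM19, or meltrin beta, a sheddase of neuregulin in heart and mesenchyme, had the smallest p of the ADAM genes. It had 937 and 1051 normalized reads in the LF/LCL cows, against 774, 413 and 423 in the SF/SCL cows. Both LF/LCL libraries were above all SF/SCL libraries, and SF/SCL replicate 1 lay between the LF/LCL values and those of the other SF/SCL libraries. The means were 994 ± 80.7 (SD, n = 2) against 536 ± 205 (SD, n = 3), a log2 fold change of 0.95 ± 0.29 with a limma adjusted p of 0.347 (unadjusted 0.0181) and a DESeq2 adjusted p of 0.133. Without SF/SCL replicate 1 DESeq2 called it, and without LF/LCL replicate 2 or SF/SCL replicate 3 its unadjusted limma p was no longer under 0.05.

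ADAM28, an ADAM of lymphocytes and epithelium, had 864 and 174 normalized reads in the LF/LCL cows, against 478, 801 and 1183 in the SF/SCL cows. LF/LCL replicate 2 was the low library and SF/SCL replicate 3 the high one, and the log2 fold change of -0.98 ± 0.72 had a 95% interval -2.77 to 0.80. DESeq2 did not call it with all libraries and did so without LF/LCL replicate 1. ADAM33 was likewise uneven, with 645 and 468 (LF/LCL) against 614, 267 and 655 (SF/SCL). ADAM11 and ADAM23, ADAM proteins without enzyme activity that are best known from neurons, had 25 and 72 reads in all. ADAM23 had 26 and 14 reads in LF/LCL beside 5, 13 and 14 in SF/SCL, and ADAM11 8 and 7 beside 3, 5 and 2. Their log2 fold changes of 1.05 ± 0.67 and 1.17 ± 0.69 rest on these few reads, with limma adjusted p of 0.598 and 0.571. ADAM8, ADAM12, ADAM21, ADAM22 and ADAM32 passed the filter with 35 to 327 reads in all, and overlapped between the groups. ADAM20 had 15 reads and ADAM7 8 reads, the latter with none in LF/LCL beside 2, 4 and 2 in SF/SCL. ADAM2 and ADAM18, which are genes of sperm, had 0 reads in every library.

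The ADAMTS genes include proteoglycan cutting enzymes and procollagen processing enzymes. ADAMTS1, which cuts versican and is known as a target of progesterone in the ovulating follicle, had 2139 and 1001 normalized reads in the LF/LCL cows, against 852, 715 and 1139 in the SF/SCL cows. LF/LCL replicate 1 was far above the others, and LF/LCL replicate 2 lay below SF/SCL replicate 3. The log2 fold change of 0.72 ± 0.36 had a 95% interval -0.16 to 1.61, and it became 0.18 when LF/LCL replicate 1 was left out and 1.27, with a DESeq2 call, when replicate 2 was. ADAMTS5, an aggrecan cutting enzyme whose gene lies next to ADAMTS1 in that gene order, did not share its pattern, with 462 and 724 (LF/LCL) against 695, 787 and 671 (SF/SCL). ADAMTS10, a partner of fibrillin, had 1053 and 824 (LF/LCL) against 779, 482 and 798 (SF/SCL), where LF/LCL replicate 2 and SF/SCL replicate 3 nearly met, and a log2 fold change of 0.48 ± 0.26. ADAMTS6 had 686 and 622 (LF/LCL) against 738, 621 and 1138 (SF/SCL), where SF/SCL replicate 3 alone was high.

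ADAMTS12, a protease that cuts cartilage oligomeric matrix protein and is made by fibroblasts, was the ADAMTS gene with the smallest p. It had 77.4 and 137 normalized reads in the LF/LCL cows, against 324, 270.5 and 238 in the SF/SCL cows. Both LF/LCL libraries were below all SF/SCL libraries, with more spread in LF/LCL in relation to its mean. The means were 107 ± 42.5 (SD, n = 2) against 278 ± 43.5 (SD, n = 3), a log2 fold change of -1.41 ± 0.30 with a limma adjusted p of 0.248 (unadjusted 0.00306) and a DESeq2 adjusted p of 0.00572. DESeq2 no longer called it without LF/LCL replicate 1 (adjusted p 0.201), without SF/SCL replicate 1 (0.0984) or without SF/SCL replicate 2 (0.0513). ADAMTS15, another proteoglycan cutting enzyme, was lower in both LF/LCL libraries as well, with 61.0 and 99.7 (LF/LCL) against 115, 126 and 139.5 (SF/SCL), and a log2 fold change of -0.69 ± 0.30 (limma adjusted p 0.455). Its log2 fold change was -0.34 when LF/LCL replicate 1 was left out and -1.04 when replicate 2 was. Its neighbour ADAMTS8 had 31 reads in all.

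The procollagen processing enzymes are ADAMTS2, ADAMTS3 and ADAMTS14, which remove the amino end of fibrillar procollagens. ADAMTS3, which also acts in the maturation of the lymphatic growth factor VEGFC, had 139.6 and 79.4 normalized reads in the LF/LCL cows, against 39.5, 57.5 and 24.7 in the SF/SCL cows. The groups did not overlap, and the means were 109 ± 42.6 (SD, n = 2) against 40.6 ± 16.4 (SD, n = 3). The log2 fold change was 1.43 ± 0.47 with a limma adjusted p of 0.362 (unadjusted 0.0223) and a DESeq2 adjusted p of 0.138. ADAMTS2 had 171 and 67.8 normalized reads in the LF/LCL cows, against 63.4, 49.0 and 61.2 in the SF/SCL cows. LF/LCL replicate 1 was high and LF/LCL replicate 2 only just above the SF/SCL libraries, and the log2 fold change of 0.90 ± 0.44 was 0.23 without LF/LCL replicate 1. ADAMTS14 had 175 and 249 (LF/LCL) against 182, 294 and 238 (SF/SCL) with a log2 fold change of -0.16 ± 0.27, so that the 3 enzymes did not have a common sign. Among their substrates, the fibrillar collagen gene COL1A1 had 9657 and 4235 (LF/LCL) against 3731, 1986 and 3858 (SF/SCL), a log2 fold change of 1.06 ± 0.44. COL3A1, another one, had 18959 and 9389.9 (LF/LCL) against 8363, 4107 and 10425 (SF/SCL), a log2 fold change of 0.91 ± 0.48. Neither was past the threshold. Smooth muscle markers were higher in the LF/LCL libraries, as ADAMTS3 and ADAM19 were, and their part in these values was not tested.

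Of the 18 ADAMTS genes, 17 were tested, 9 with a log2 fold change above 0 and 8 below. ADAMTS19 stayed under the filter with 5 reads. ADAMTS4, ADAMTS7, ADAMTS9, ADAMTS13, ADAMTS16, ADAMTS17 and ADAMTS18 overlapped between the groups, with 42 reads in all for ADAMTS13 to 1473 for ADAMTS7. ADAMTS9, a proteoglycan cutting enzyme, had 346 and 346 (LF/LCL) against 428, 169 and 186 (SF/SCL), and DESeq2 called it without SF/SCL replicate 1. The 3 ADAMTS-like genes, whose products bind fibrillin microfibrils, varied within the groups. ADAMTSL4 had 352 and 136 normalized reads in the LF/LCL cows, against 397, 184 and 317 in the SF/SCL cows, ADAMTSL3 had 202 and 106 (LF/LCL) against 96.7, 36.5 and 134 (SF/SCL), and ADAMTSL1 had 49.3 and 32.9 (LF/LCL) against 22.9, 42.0 and 12.9 (SF/SCL). The groups overlapped in all 3, with log2 fold changes of -0.38 ± 0.50, 0.89 ± 0.61 and 0.77 ± 0.58. ADAMTSL4 turned to 0.30 without LF/LCL replicate 2.

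In the plasminogen system, PLAT, the tissue-type activator made by endothelium and epithelium, had 2611 and 1497 normalized reads in the LF/LCL cows, against 2484, 2201 and 3128 in the SF/SCL cows. LF/LCL replicate 2 was the low library, and LF/LCL replicate 1 lay within the SF/SCL range. The log2 fold change of -0.38 ± 0.27 was 0.02 without LF/LCL replicate 2. PLAU, the urokinase-type activator, was steady, with 649.7 and 616 (LF/LCL) against 569.8, 508 and 709 (SF/SCL), and a log2 fold change of 0.10 ± 0.17 (95% interval -0.31 to 0.51). PLAUR, the receptor that holds PLAU at the cell surface, had 104 and 330.1 normalized reads in the LF/LCL cows, against 93.6, 109 and 199.6 in the SF/SCL cows. LF/LCL replicate 2 alone was high, and the log2 fold change of 0.55 ± 0.57 turned to -0.28 without it. PLG, the plasminogen precursor itself, had reads in LF/LCL replicate 1 only and stayed under the filter.

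Genes that work with these proteases were read from lists chosen by their roles. Of 14 tested genes of precursor activation and ADAM maturation, 5 had an unadjusted p under 0.05, all higher in LF/LCL, and 0 an adjusted p under 0.05, beside 5.64% of all genes in that direction. The median log2 fold change was 0.21. The 3 with the smallest p were TSPAN15, TSPAN17 and TSPAN14, tetraspanins that guide ADAM10 to the cell surface. TSPAN15 had 680.2 and 569 normalized reads in the LF/LCL cows, against 427, 438 and 425 in the SF/SCL cows, a log2 fold change of 0.53 ± 0.13 with a limma adjusted p of 0.296. TSPAN17 had 442 and 507 (LF/LCL) against 344, 273 and 259.7 (SF/SCL) and a log2 fold change of 0.71 ± 0.18, and TSPAN14 had 3124 and 2994 (LF/LCL) against 2152, 2535 and 2253 (SF/SCL) and a log2 fold change of 0.41 ± 0.11. In all 3 both LF/LCL libraries lay above the SF/SCL libraries. TSPAN33, of the same set of tetraspanins, had 956 and 1069 (LF/LCL) against 1443, 1104 and 1303 (SF/SCL), with a log2 fold change of -0.34 ± 0.14. Here both LF/LCL libraries lay below the SF/SCL libraries. Of the 14 genes, 6 were higher in LF/LCL without overlap and 2 lower, against 15% and 15.1% of all genes. The other 2 with an unadjusted p under 0.05 were CD44, a hyaluronan receptor that docks MMPs, and FURIN, which cuts the propeptides of ADAM and membrane MMP proteins. FURIN had 2115 and 1496 normalized reads in the LF/LCL cows, against 1285, 1334 and 1142 in the SF/SCL cows, a log2 fold change of 0.51 ± 0.17.

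Among 8 tested genes of metalloproteinase inhibition and uptake, SPOCK1, a matrix proteoglycan with an inhibitor domain, had the smallest p. It alone had an unadjusted limma p under 0.05 and a DESeq2 call, higher in LF/LCL (5.64% and 1.38% of all genes in that direction). SPOCK1 is also listed by the study for the LF/LCL ampulla from these libraries, so that the 2 results are not independent. It had 1163 and 728 normalized reads in the LF/LCL cows, against 507, 321 and 339 in the SF/SCL cows, a log2 fold change of 1.27 ± 0.28 with a limma adjusted p of 0.253 and a DESeq2 adjusted p of 0.00509. THBS1 and THBS2, the next by p in this list and matrix thrombospondins that bind MMP2, had log2 fold changes of -0.30 ± 0.27 and -0.63 ± 0.70. The list's median was 0.05. Of 6 tested plasminogen partners, S100A10, which with ANXA2 holds plasminogen at the surface, was the only one with an unadjusted p under 0.05. It was higher in LF/LCL (5.64% of all genes in that direction). It had 3877 and 4156 normalized reads in the LF/LCL cows, against 3129, 2506 and 2124 in the SF/SCL cows and a log2 fold change of 0.65 ± 0.17. HGFAC had a log2 fold change of -0.37 ± 0.48.

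Of 23 tested matrix substrates, 20 had a log2 fold change above 0 (median 0.65), against 50.8% of all genes, and 5 an unadjusted p under 0.05, all higher in LF/LCL (5.64% of all genes in that direction). The 3 with the smallest p were COL4A2, COL4A1 and FBN2. COL4A1, a basement membrane collagen, had 6238 and 2508 normalized reads in the LF/LCL cows, against 2050.3, 1659 and 1601 in the SF/SCL cows, a log2 fold change of 1.17 ± 0.38 with a limma adjusted p of 0.362 and a DESeq2 adjusted p of 0.022. COL4A2, its partner chain, had a log2 fold change of 1.18 ± 0.38, and FBN2, a fibrillin, of 0.96 ± 0.38. The median of this list ran from 0.31 to 1.16 across the fits that left out 1 library, the lowest without LF/LCL replicate 1 and the highest without LF/LCL replicate 2. Smooth muscle markers were higher in LF/LCL as well. The stromal fibroblast markers, which share COL1A1, COL1A2, COL3A1, DCN and LUM with this list, had a median of 0.73, of 0.12 without LF/LCL replicate 1 and of 1.09 without LF/LCL replicate 2. The part of either in these values was not tested. Of 21 tested membrane proteins that ADAM10 or ADAM17 cut, 11 had a log2 fold change above 0 and 10 below, with a median of 0.04. CD44 and SDC4, a heparan sulfate syndecan, had the smallest p here with log2 fold changes of 0.82 ± 0.25 and -0.47 ± 0.14, and IL6R followed with 0.77 ± 0.31. Of 5 tested metalloproteases outside the families, ECE1, the endothelin converting enzyme, had a log2 fold change of 0.41 ± 0.14, TLL1 of 0.70 ± 0.72, PAPPA2 of 0.60 ± 0.80, BMP1 of -0.09 ± 0.22 and MME of -0.0049 ± 0.27.

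The order of the libraries differed between members and was set beside that of the marker sums, a description made after the values were seen. The summed stromal fibroblast markers were highest in LF/LCL replicate 1, then SF/SCL replicate 3, SF/SCL replicate 1, LF/LCL replicate 2 and SF/SCL replicate 2. MMP2, MMP14 and MMP19 had exactly this order, which makes 3 of 48 members (6.25%), against 1.2% of all genes tested. Other marker lists were compared in the same way. The order of the smooth muscle sum was met by 2 members (4.17%, against 2.02%) and that of the endothelial sum by 1 (2.08%, against 1.21%). The orders of the ciliated and immune sums were met by 0 members (against 1.69% and 0.86%). LF/LCL replicate 1 and SF/SCL replicate 3 were the 2 highest libraries in 13 members (27.1%), against 10.9% of all genes. These were ADAM17, ADAM23, ADAM28, ADAM33, ADAMTS1, ADAMTS13, ADAMTSL3, MMP2, MMP14, MMP19, PLAT, PLAU and TIMP1. The endothelial marker sum was highest in the same 2 libraries, so that stroma and vessels cannot be told apart by this. The 2 highest libraries of the ciliated sum were shared by 2 members (4.17%, against 9.78% of all genes). Those of the immune sum were shared by 3 members (6.25%, against 9.04%).

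The 2 LF/LCL libraries were the 2 highest in 8 members (16.7%), against 15% of all genes. These are the same 8 members given above as higher in LF/LCL without overlap. The summed smooth muscle markers were highest in these 2 libraries too, but any such gene meets this by definition, so that it adds nothing to that count. MMP23B and ADAM19 were highest in LF/LCL replicate 2, and the smooth muscle sum in LF/LCL replicate 1. Only ADAM11 and ADAMTS3 had the full order of that sum. LF/LCL replicate 1 was the highest library in 16 of the 48 members (33.3%, against 21.9% of all genes), and SF/SCL replicate 2 the lowest in 17 (35.4%, against 18.7%).

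**Figure D4:**
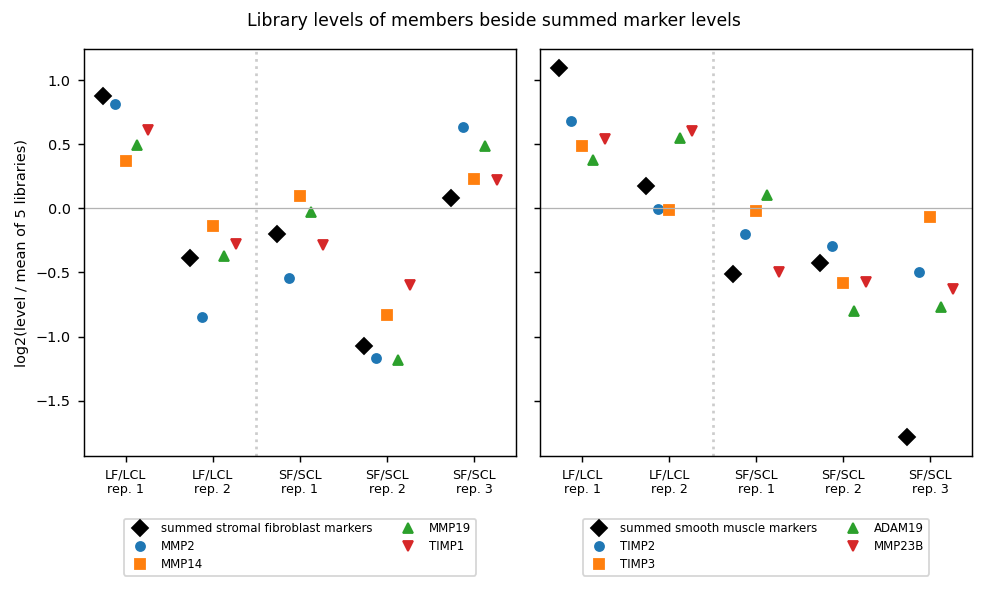
Level in each library relative to the mean of the 5 libraries (log2 scale), for members and for summed marker genes (black diamonds); left, stromal fibroblast markers with MMP2, MMP14, MMP19 and TIMP1, right, smooth muscle markers with TIMP2, TIMP3, ADAM19 and MMP23B. On the left LF/LCL replicate 1 and SF/SCL replicate 3 are the 2 highest libraries throughout. On the right both LF/LCL libraries lie above the SF/SCL libraries throughout. All members shown are among those with the same 2 highest libraries as the marker sum, so that this was fixed by their choice.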

How the data were processed

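PolyA libraries of 5 ampulla samples were sequenced as read pairs. Reads were filtered with seqyClean, aligned by the authors with TopHat2 2.0.8 and Bowtie2 2.1.0 against UMD 3.1 with repeats masked, and uniquely mapped reads were assigned to Ensembl genes with HTSeq 0.5.4p2. A further LF/LCL library was discarded by the authors for low quality. The deposited unit is a normalized signal, that is, reads divided by 1 DESeq 1.12.1 size factor per library. Whether counting used strand is not given in the sources used here, and overlapping, antisense or near-identical genes are uncertain.

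Whole reads were recovered for 100% of the values in every library (within the rounding of 3 decimals). The main test was limma 3.58.1 (trend, robust) on log2(value + 1) for 15815 genes with a mean over 5, which understates the change of low genes. P-values are two-sided, with Benjamini-Hochberg adjustment over all these genes and a threshold of 0.05. edgeR 4.0.16 and DESeq2 1.42.0 were run on the recovered reads. Alternatives were other pseudocounts, filters, scalings and estimators and leaving out each library. Scripts were tested on simulated data. No covariate was used and the labels give no batch. An exact two-sided rank test of 2 against 3 libraries cannot go below 0.2 and was not used. Depths ran from 13418278 to 19592174 reads.

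Members, gene lists and tests were chosen with earlier results of these data known. Named are the TIMP and plasminogen genes, MMP2, MMP9, MMP14, MMP23B, ADAM10, ADAM17, ADAMTS1 and ADAMTS2, within MMP, ADAM, ADAMTS and ADAMTSL the 3 members with the highest mean and the 3 with the smallest p, and DESeq2 calls. In the lists of genes that work with the proteases the 3 with the smallest p are named, except 1 gene that is not reported here. Marker lists are given by counts and sums, and other genes were chosen after their values were seen. Gene order came from the RefSeq table of assembly NIAB-ARS_B.indTharparkar_mat_pri_1.0, in which 56 of 62 symbols matched. Protein and promoter sequences were not used here.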

Additional observations from a re-analysis of the deposited data

How the results depend on the processing

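The count of 0 members with an adjusted p under 0.05 became 3 with DESeq2 and 3 with the edgeR exact test, and was 0 in all fits without 1 library (from 0 to 0). The members with an unadjusted p under 0.05 numbered from 2 to 6 higher in LF/LCL and from 2 to 5 lower across the fits without 1 library. Those whose groups do not overlap numbered from 10 to 17 and from 4 to 9, because fewer samples have to be separated. DESeq2 calls of members ran from 2 to 5 without 1 library, a choice added after seeing the data, as were DESeq2 with TMM scaling and without the filter (3 in both).

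Without 1 library the median log2 fold change ran from -0.00075 to 0.44 for ADAM, from 0.18 to 0.36 for ADAMTS, where it was 0.41 with all, from 0.076 to 0.77 for TIMP, from -0.055 to 0.40 for MMP (0.23 with all) and from -0.0075 to 0.23 for plasminogen activation (0.10 with all). The MMP median was below 0 without LF/LCL replicate 1 (-0.048) or SF/SCL replicate 2 (-0.055), and that of plasminogen activation without SF/SCL replicate 2. By the quasi-likelihood test and by DESeq2 the ADAMTS median was 0.23, by the edgeR exact test 0.22, and it was -0.087 with a mean over 15, where fewer genes entered. The cause of the other shifts was not tested.

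Of 444 values of 28 named members under other settings, 10 in 8 genes changed sign, in fits without 1 library only, and 6 became called, those of MMP7, MMP23B and ADAMTS12 with DESeq2 and the edgeR exact test. ADAM17 ran from -0.034 to 0.18, ADAMTSL4 from -1.07 to 0.30, MMP2 from -0.49 to 1.17, MMP14 from -0.047 to 0.54, PLAT from -0.78 to 0.019, PLAU from -0.0075 to 0.23, PLAUR from -0.28 to 1.37 and TIMP1 from -0.060 to 0.83. A fit without an LF/LCL library assumes that the lone sample varies like the SF/SCL group. The shares of all genes were counted with the 5 libraries only. The counts of members without 1 library, by p, by overlap or by DESeq2, therefore have no such share beside them. Whether they exceed what all genes reach in the same fits was not tested. No paired analysis was possible because the replicates are different animals and share no numbers in the labels. Depth limits the 15 members under the filter.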
